A study of Mus musculus with 2 samples.

Results

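The genes described here are 10 genes of the cytotoxic granule and of target cell killing, taken by symbol from the 32285 features of both count matrices: the granzymes Gzma, Gzmb, Gzmk and Gzmm, the pore-forming protein perforin (Prf1), the death ligand Fasl, the granule genes Nkg7 and Ctsw, and the serpins Serpinb9 and Serpinb6b. All 10 were found. The study read 3′ RNA tags of single spleen immune cells in droplets, from C57BL/6 mice, in 1 library labelled WT and 1 labelled RPA1 CKO, a conditional knockout of the large subunit of replication protein A. The labels give neither the Cre driver nor the deleted exons, and they name no treatment or age. With 1 library per genotype there was no test, so every value describes these libraries.

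Natural killer (NK) cells and cytotoxic T cells store granzymes and perforin in secretory granules and release them onto a target cell. Perforin opens the target's membrane to the granzymes, which are serine proteases that cleave proteins inside it, while Fas ligand kills through a death receptor without granules. Serpins of the Serpinb family inhibit proteases, and Serpinb9 is known as the inhibitor that shields killer cells from their own granzyme B. In the unstimulated mouse spleen, NK cells are known to hold much more Gzma and Prf1 message than naive T cells.

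The WT library held 13291 barcodes and 84240951 unique molecular identifiers (UMIs, each counting 1 captured molecule), and the CKO library 12958 barcodes and 76910129 UMIs. After filtering, 11285 WT cells (median 5334 UMIs) and 11317 CKO cells (median 4499 UMIs) were used. Of all barcodes 36 occurred in both libraries, and 27 among the cells used. Cells were placed in gates by raw UMIs of lineage genes, with none of the 10 genes among them. The T gate held 3385 WT cells (30.0% of the library) and 719 CKO cells (6.35%), and the NK gate held 350 WT cells (3.10%, 95% interval 2.79 to 3.44) and 855 CKO cells (7.56%, 7.07 to 8.06). NK markers outside the gate's definition were found in 57.4% to 100% of NK gate cells in the WT library and 49.8% to 99.5% in the CKO library. Rpa1 itself stood at 53.9 CPM in the WT and 50.9 CPM in the CKO NK gate, with CKO over WT ratios of 0.945 (0.734 to 1.23) there, 0.821 (0.691 to 0.971) in the T gate and 0.957 (0.886 to 1.03) in the B gate. Where the tags lie relative to the deletion is not given, so the Rpa1 counts check nothing about its loss.

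Levels are given as CPM, the UMIs of a gene divided by all UMIs of the gate's cells, times 10⁶. Ranges in parentheses are exact 95% intervals and cover counting error only. A gene was counted as higher or lower in the CKO library when it had at least 20 summed counts in a gate and its CPM ratio, with 1 CPM added to each side, was at least 1.5-fold. A 3′ UMI does not scale with transcript length, although capture can differ between genes.

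Over the whole NK gate none of the 10 genes differed by 1.5-fold between the libraries. All 10 were measured, 0 were higher and 0 lower, where 5.68% of 9585 genes were higher and 3.64% lower. The median log2 ratio was −0.06 over the 10 genes and 0.00 over all genes. Together the 10 genes made up 1.68% of all UMIs of WT and 1.72% of all UMIs of CKO NK gate cells. T lineage and signalling markers outside the gates' definitions, some shared with NK cells, were found in 5.14% (Bcl11b) to 85.1% (Lck) of WT NK gate cells. In CKO NK gate cells the range was 5.38% to 84.7%. Trac, whose UMIs the NK gate limits, was found in 3.14% and 4.21%.

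Gzma encodes granzyme A, a tryptase-like protease (GRCm38 chromosome 13, 113093825 to 113100981, minus strand). It was the most abundant of the 10 in NK gate cells, at 10890 CPM (10733 to 11050) in the WT library and 11417 CPM (11312 to 11522) in the CKO library. The ratio was 1.05 (1.03 to 1.07), with an interval above 1 but far inside the 1.5-fold limit. A Gzma UMI was found in 92.3% of WT and 96.4% of CKO NK gate cells, and after thinning each cell to 1000 UMIs in 92.0% and 95.2%, with a median of 11 and 12 UMIs per cell. Gzma filled most NK gate cells of both libraries to about the same depth.

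Gzmk, granzyme K, lies near Gzma on the same chromosome and strand (113171608 to 113225908), yet its level in the NK gate was 8.38 CPM (4.58 to 14.1) in the WT library and 8.02 CPM (5.49 to 11.3) in the CKO library. Gzmb, granzyme B, the protease that cleaves after aspartate and activates caspases (chromosome 14, 56258838 to 56262260, minus strand), stood between them at 313 and 344 CPM, a ratio of 1.10 (0.992 to 1.22). Gzmm, granzyme M (chromosome 10, 79689020 to 79695261, plus strand), was at 23.9 and 22.6 CPM, a ratio of 0.943 (0.643 to 1.40), with a UMI in 8.57% of WT and 7.60% of CKO cells. The order of the granzymes, Gzma, Gzmb, Gzmm and Gzmk, was shared by both libraries, with no overlap of neighbouring intervals in either.

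The bases before the start of Gzma, Gzmk, Gzmb and Prf1 are shown because these genes, 2 of them neighbours, ran from 8.02 CPM for Gzmk to 11417 CPM for Gzma in the same CKO NK gate cells. Each is the 250 bases upstream of the start in RefSeq's table (GRCm38.p6), 5′ to 3′ on the gene's strand. For Gzmk that start lies inside the gene span given above, which comes from another annotation, so its window is not upstream of that span. Capitals mark the letters TGTGGT or ACCACA (a core of RUNX sites on either strand) and TCACAC or GTGTGA (a core of T-box sites), which do not overlap here.
Gzma, chr13:113100982-113101231, minus strand: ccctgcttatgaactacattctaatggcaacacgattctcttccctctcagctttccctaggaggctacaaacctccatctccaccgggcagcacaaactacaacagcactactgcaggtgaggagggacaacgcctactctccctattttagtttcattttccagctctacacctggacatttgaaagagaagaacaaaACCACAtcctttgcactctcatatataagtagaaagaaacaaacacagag
Gzmk, chr13:113180966-113181215, minus strand: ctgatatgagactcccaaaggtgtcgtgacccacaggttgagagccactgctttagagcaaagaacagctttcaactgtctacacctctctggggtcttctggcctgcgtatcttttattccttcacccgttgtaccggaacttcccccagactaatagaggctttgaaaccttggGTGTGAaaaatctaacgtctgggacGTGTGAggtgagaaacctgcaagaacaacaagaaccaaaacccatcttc
Gzmb, chr14:56262335-56262584, minus strand: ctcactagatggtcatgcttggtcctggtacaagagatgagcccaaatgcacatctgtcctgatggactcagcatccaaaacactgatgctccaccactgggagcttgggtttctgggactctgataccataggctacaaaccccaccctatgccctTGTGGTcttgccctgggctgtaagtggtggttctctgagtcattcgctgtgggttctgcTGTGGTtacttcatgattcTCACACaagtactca
Prf1, chr10:61297586-61297835, plus strand: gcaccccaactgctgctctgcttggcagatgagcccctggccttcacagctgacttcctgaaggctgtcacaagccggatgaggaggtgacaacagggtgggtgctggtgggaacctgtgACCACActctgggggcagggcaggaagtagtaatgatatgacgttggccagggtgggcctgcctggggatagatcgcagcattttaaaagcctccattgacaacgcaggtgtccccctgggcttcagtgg
The Gzma window held 1 RUNX match, 50 bases before the start, and the Prf1 window 1, at 130 bases. The Gzmb window held 2 RUNX matches, at 93 and 34 bases, and 1 T-box match at 15 bases. The Gzmk window held no RUNX match but 2 T-box matches, at 74 and 49 bases. Over the 10 windows found for 9 of the 10 genes, 5 held a RUNX and 4 a T-box match, while 14.0% and 12.3% of 32851 promoter windows of the same length did. A match of 6 letters is a description of these windows and not evidence of binding. Runx3, Tbx21 and Eomes, the NK cell factors of these families, were present in the NK gate at 281, 187 and 411 CPM in the WT and 297, 193 and 413 CPM in the CKO library.

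Prf1 (chromosome 10, 61297833 to 61304680, plus strand) stood at 852 CPM (809 to 898) in WT and 911 CPM (881 to 941) in CKO NK gate cells, a ratio of 1.07 (1.0 to 1.14). It was found in 88.3% and 93.8% of cells, and in 54.6% and 61.8% after thinning. Fasl (chromosome 1, 161780689 to 161788495, minus strand) was at 121 and 110 CPM, a ratio of 0.904 (0.764 to 1.07), with a UMI in 40.3% and 37.9% of cells, and in 9.20% (6.37 to 12.7) and 10.54% (8.56 to 12.8) after thinning. Both levels lay well inside 1.5-fold, and the Fasl share had no direction that held at equal depth.

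Nkg7, a membrane protein of cytotoxic granules that takes part in their release (chromosome 7, 43437073 to 43438249, plus strand), was found in nearly every NK gate cell, 98.9% in the WT library and 99.5% in the CKO library. Its level was 3270 CPM (3184 to 3358) and 3141 CPM (3087 to 3197), a ratio of 0.961 (0.931 to 0.992). Ctsw, the cysteine protease cathepsin W (chromosome 19, 5465043 to 5468507, minus strand), was at 737 and 670 CPM, a ratio of 0.909 (0.849 to 0.973). Both were slightly lower in the CKO library, with intervals below 1.

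Among the inhibitors, Serpinb9 (chromosome 13, 33003250 to 33017957, plus strand) was at 285 and 266 CPM, a ratio of 0.932 (0.836 to 1.04). Serpinb6b, its neighbour (32965209 to 32979067, plus strand), was at 263 CPM (239 to 289) and 304 CPM (287 to 322), a ratio of 1.15 (1.03 to 1.29), although the share of cells with a UMI was 57.7% in the WT library and 57.4% in the CKO library. For both serpins, and for the granzymes on chromosome 14, reads of close paralogs may have been split in counting.

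**Figure D1:**
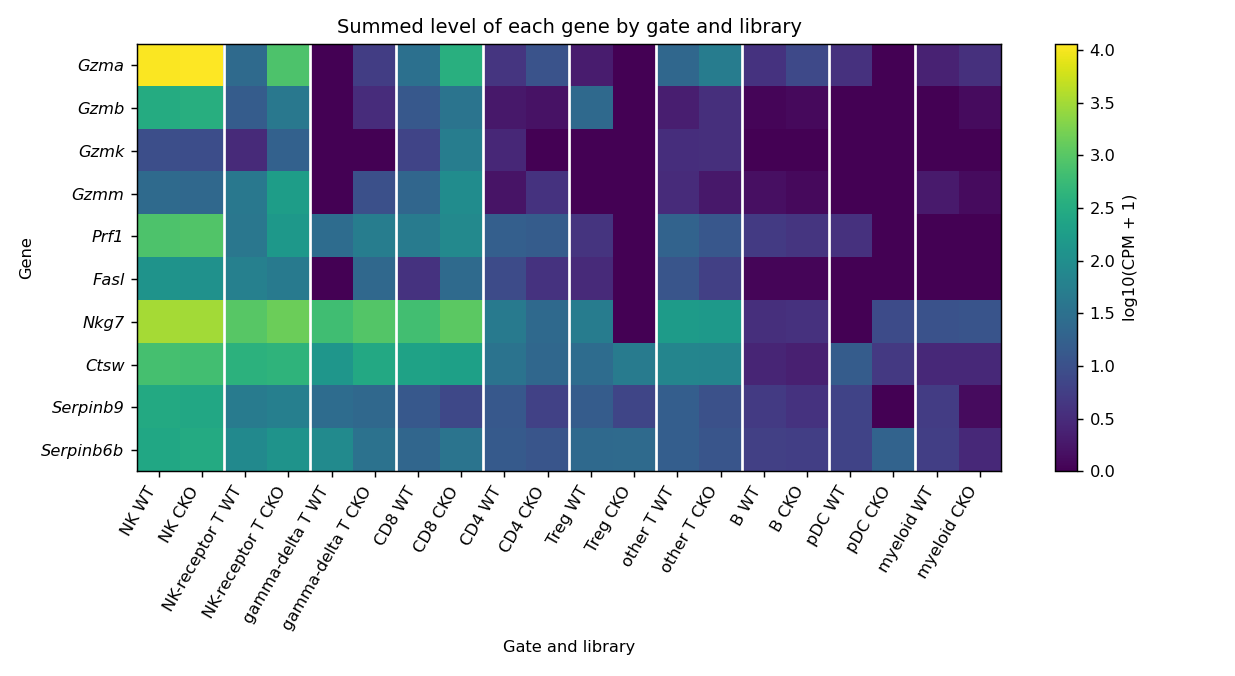
Level of each of the 10 genes (rows) in each gate and library (columns), as log10 of CPM plus 1 by colour. The NK gate columns are the brightest for every gene but Gzmk and Gzmm, and Gzma there stands at 10890 CPM in the WT library and 11417 CPM in the CKO library.

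Joint presence in single cells was alike between the libraries for Gzma, Gzmb and Prf1 together, and less so for the other 2 shares. After thinning to 1000 UMIs, which left out 2 WT and 1 CKO cell, Gzma, Gzmb and Prf1 were all present in 18.1% (14.2 to 22.6) of WT and 18.7% (16.2 to 21.5) of CKO NK gate cells. Gzma and Prf1 were present together in 53.7% (48.3 to 59.1) and 61.0% (57.6 to 64.3). Cells with no UMI of any of the 4 granzymes or Prf1 made up 6.90% (24 cells) of the WT and 3.75% (32 cells) of the CKO NK gate. The median cell held 4 of the 10 genes in each library. At this depth the intervals of all 3 shares overlapped between the libraries, which does not show that the shares are equal.

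Other genes of the granule pathway were measured from a list of 35. Of the 25 with enough counts in the NK gate, 0 were higher and 2 lower in the CKO library. Over all genes 5.68% were higher and 3.64% lower, and a count of 2 is too small to read as a result about the list. The median log2 ratio of the 25 was −0.05. Lyst, a regulator of lysosome and granule size that is mutated in the beige mouse, stood at 104 CPM in the WT library and 68.5 CPM in the CKO library, a ratio of 0.657 (0.542 to 0.80). Serpinb1a, another protease inhibitor, was at 10.2 and 5.52 CPM, a ratio of 0.542 (0.275 to 1.09), with an interval that spans 1. Genes that process and pack granzymes lay closer to 1, such as the dipeptidyl peptidase Ctsc at 0.925 (0.780 to 1.10), the cystatin Cst7 at 0.921 (0.795 to 1.07) and the granule proteoglycan Srgn at 0.847 (0.780 to 0.919). The release factors Unc13d and Rab27a had ratios of 1.10 (0.850 to 1.43) and 1.26 (0.921 to 1.74). Of the other granzymes in the Gzmb cluster, Gzmd, Gzme, Gzmf, Gzmg and Gzmn had 0 counts in the NK gate of both libraries, and Gzmc had 2 WT and 12 CKO counts.

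Within the NK gate the genes varied with maturity in much the same way in each library. NK cells lose CD27 and gain CD11b (Itgam) as they mature. Cells with an Itgam but no Cd27 UMI numbered 143 in the WT (40.9% of the gate) and 383 in the CKO library (44.8%), and cells with a Cd27 but no Itgam UMI numbered 62 (17.7%) and 111 (13.0%). These Cd27-only cells were the deeper ones, with a median of 5532 and 5372 UMIs against 4255 and 3878. Zeb2, a factor of mature NK cells, was 2.43 and 2.72 times as high in Itgam-only cells.

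Gzma, Gzmb and Prf1 were higher in Itgam-only cells of both libraries. Gzma stood at 14574 CPM against 6142 CPM in the WT library, 2.37 times (2.26 to 2.49), and at 14012 against 6296 CPM in the CKO library, 2.23 times (2.16 to 2.30). Gzmb was at 410 against 135 CPM in the WT, 3.05 times (2.23 to 4.24), and at 458 against 180 CPM in the CKO library, 2.55 times (2.11 to 3.10). Prf1 was at 1137 against 555 CPM in the WT, 2.05 times (1.75 to 2.41), and at 1190 against 446 CPM in the CKO library, 2.67 times (2.37 to 3.01). The CKO over WT ratio of Prf1 was 1.05 (0.960 to 1.14) among Itgam-only and 0.804 (0.672 to 0.965) among Cd27-only cells by summed counts. At equal depth the Cd27-only cells went the other way, with a Prf1 UMI in 27.4% (16.9 to 40.2) of WT and 40.5% (31.3 to 50.3) of CKO cells after thinning, so no direction is read for them.

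Gzmm ran the other way. It was at 14.4 CPM in Itgam-only and 50.4 CPM in Cd27-only cells of the WT library, 0.285 times (0.113 to 0.668), and at 13.6 and 31.8 CPM in the CKO library, 0.428 times (0.228 to 0.804), from 9 and 18 counts in the WT library and 22 and 23 in the CKO library. Fasl was 1.67 times (1.12 to 2.57) as high in Itgam-only cells of the WT and 1.38 times (1.04 to 1.85) of the CKO library. Nkg7 was 1.31 and 1.43 times as high, whereas Ctsw, at 1.07 times in both, hardly differed between the stages.

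The serpins were less alike. Serpinb9 was 1.26 times (0.983 to 1.63) as high in Itgam-only cells of the WT and 1.55 times (1.28 to 1.89) of the CKO library. Serpinb6b was 1.05 times (0.815 to 1.36) in the WT library and 0.720 times (0.618 to 0.842) in the CKO library, since its level in Cd27-only cells was 269 CPM in the WT library and 374 CPM in the CKO library. Of the 9 genes measured, 4 were at least 1.5-fold higher and 1 lower in Itgam-only cells of each library. Over all genes these shares were 15.7% higher and 9.18% lower of 5960 genes in the WT, and 15.2% higher and 8.42% lower of 8112 genes in the CKO library. Gzma, Gzmb, Prf1 and Fasl were the 4 in the WT library, and Gzma, Gzmb, Prf1 and Serpinb9 in the CKO library. Cells with Gzma, Gzmb and Prf1 together after thinning made up 21.7% and 23.0% of Itgam-only cells, and 4.84% and 7.21% of Cd27-only cells, in the WT and CKO libraries.

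**Figure D2:**
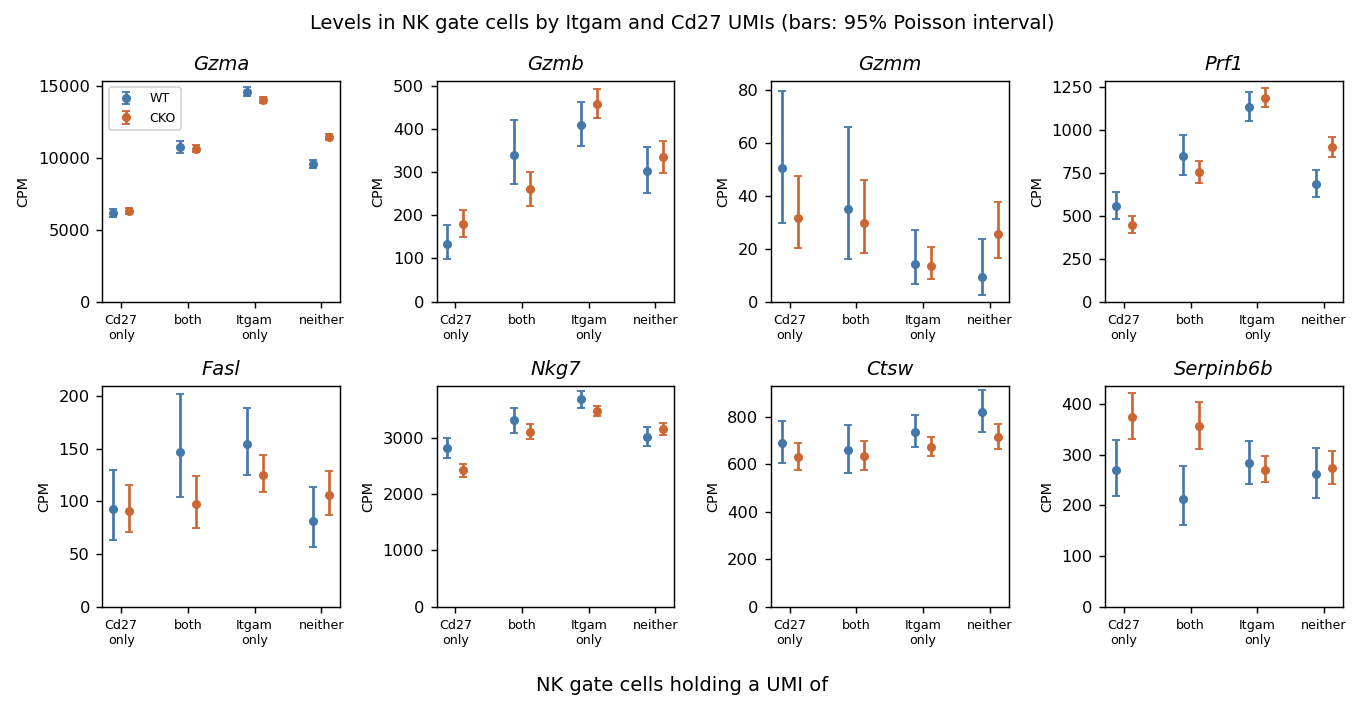
CPM of 8 of the genes in NK gate cells split by UMIs of Cd27 and Itgam, for the WT (blue) and CKO (orange) library, with 95% Poisson intervals. Gzma, Gzmb and Prf1 are highest in Itgam-only cells of both libraries, while the Gzmm points are higher in Cd27-only cells.

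In the T gate, 3 of the 10 genes were higher in the CKO library and 0 lower, where 4.66% of 11663 genes were higher and 3.10% lower. The 3 were all granzymes. Gzma stood at 17.9 CPM (16.3 to 19.7) in the WT library and 138 CPM (127 to 149) in the CKO library, a ratio of 7.70 (6.81 to 8.72). Gzmk was at 3.32 and 8.92 CPM, a ratio of 2.69 (1.80 to 3.95), and Gzmm at 10.2 and 30.5 CPM, a ratio of 3.0 (2.42 to 3.70). The other 7 ranged from 0.875 for Serpinb9 to 1.47 for Fasl, with Prf1 at 1.27 (1.06 to 1.5) and Nkg7 at 1.18 (1.13 to 1.24). A Gzma UMI was found in 108 WT cells (3.19%) and 57 CKO cells (7.93%) of the gate. The Gzma ratio moved with the processing, at 3.42 with no doublet removal and 10.9 with stricter gates (both with 1 CPM added). Its makeup differed too, since 4.05% of WT and 24.1% of CKO T gate cells held a UMI of Trdc, the δ receptor chain, and the part of that in these ratios was not tested over the whole gate.

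In the CD8 gate, which held 1134 WT and only 80 CKO cells, 8 of the 10 genes were higher and 1 lower in the CKO library. Over all 9950 genes with enough counts in this gate, 11.7% were higher and 12.2% lower. The median log2 ratio was 1.13 over the 10 genes and 0.06 over all genes. Together the 10 genes made up 0.104% of WT and 0.198% of CKO UMIs, far below the NK gate.

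Gzma in the CD8 gate measured 30.4 CPM (27.0 to 34.2) in the WT library and 358 CPM (313 to 409) in the CKO library, a ratio of 11.8 (9.83 to 14.1). Few cells carried it, 52 of 1134 in the WT library and 10 of 80 in the CKO library, and 1 cell held 123 of the 219 CKO counts (56.2%). Without the cell with most Gzma UMIs in each library the ratio was 6.28 (with 1 CPM added). After thinning to 1000 UMIs, 1.15% (0.612 to 1.95) of WT and 7.50% (2.80 to 15.6) of CKO CD8 gate cells held a Gzma UMI, against 0.323% of WT and 0.748% of CKO B gate cells. Median depth was 7828 and 7772 UMIs in the CD8 gate and 4571 and 4300 UMIs in the B gate.

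Gzmk was at 5.70 CPM (15 cells) in the WT library and 50.7 CPM (11 cells) in the CKO library, a ratio of 8.91 (5.53 to 14.1). In the CKO library Gzmk was above its NK gate level of 8.02 CPM. Gzmm was at 20.9 and 91.7 CPM, a ratio of 4.40 (3.20 to 5.95), and Gzmb at 12 and 36 CPM, a ratio of 2.99 (1.80 to 4.76). In the CKO CD8 gate the Gzmm interval of 69.2 to 119 CPM lay above that of Gzmb (22.6 to 54.5 CPM), unlike in the NK gate, while that of Gzmk (34.5 to 72.02 CPM) overlapped both.

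Fasl was at 2.90 CPM (1.91 to 4.22) in the WT library and 24.6 CPM (13.7 to 40.5) in the CKO library, a ratio of 8.46 (4.18 to 16.5). Prf1 was at 48.3 and 80.2 CPM, a ratio of 1.66 (1.21 to 2.24), and Nkg7 at 671 and 1097 CPM, a ratio of 1.64 (1.51 to 1.77). Nkg7 was broadly present, in 1058 of 1134 WT and 72 of 80 CKO cells, unlike the granzymes. Ctsw was at 215 and 200 CPM, a ratio of 0.930 (0.768 to 1.12). Serpinb6b was at 21 and 36 CPM, a ratio of 1.72 (1.05 to 2.68), and 1.43 without the top cell in each library. After thinning it was found in 20 of 1134 WT and 0 of 80 CKO cells, so its direction did not hold at equal depth. Serpinb9 was the gene counted as lower, at 12 and 6.55 CPM, but its ratio of 0.544 had an interval of 0.146 to 1.43 from 4 CKO counts.

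The CD8 gate differed in makeup between the libraries. A Trdc UMI was found in 2.73% of WT (31 cells) and 26.2% of CKO cells (21 cells), and Il2rb, a receptor chain of memory and innate-like T cells, in 37.7% and 47.5%. NK markers outside the gates' definitions differed unevenly. Klrk1 was found in 7.14% of WT and 25% of CKO CD8 gate cells, and Tyrobp in 4.14% and 10%. Klrd1 (67.8% and 65%), Eomes (24.9% and 25%), Klra8 (0.529% and 0%) and Fcer1g (2.65% and 3.75%) differed by little. Among the cells with no Trdc UMI, 1103 WT and 59 CKO cells, 5 genes were still higher and 1 lower, where 12.5% of genes were higher and 15.3% lower. There Gzma had a ratio of 11.9 (9.72 to 14.4), with 75.5% of the CKO counts in 1 cell, Gzmm 4.21 (2.90 to 5.96), Fasl 4.58 (1.55 to 11.3), Gzmk 3.50 (1.52 to 7.15) and Gzmb 1.67 (0.744 to 3.29). Prf1 was at 1.46 (0.983 to 2.11), Nkg7 at 1.29 (1.16 to 1.43) and Serpinb6b at 0.965 (0.435 to 1.87). The Gzmk, Gzmb and Fasl ratios rested on 9, 9 and 6 CKO counts, and that of Serpinb9, the lower gene, on 1. After thinning, Gzmk and Fasl were found in 0 of 59 CKO cells, against 2 and 4 of 1103 WT cells.

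Among cells with an Il2rb UMI, 428 WT and 38 CKO cells, 7 genes were higher and 1 lower, where 14.6% of genes were higher and 16.4% lower. Gzmb was not among the 7, at 0.833 (0.327 to 1.78). Gzma had a ratio of 2.61 (1.88 to 3.56), Gzmk 4.58 (2.59 to 7.80), Gzmm 3.36 (2.42 to 4.6), Prf1 2.01 (1.37 to 2.87) and Fasl 9.26 (4.26 to 19.7). The 50 CKO counts of Gzma came from 4 cells, with 34 of them (68%) in 1 cell, so its ratio rests largely on that cell. In the WT library Gzmk lay almost entirely in such cells, with 52 counts against 1 in cells without Il2rb, and Gzmm was at 46.3 CPM with and 1.88 CPM without an Il2rb UMI. Prf1 differed less, at 53.6 and 44.3 CPM. Among cells without Il2rb, 706 WT and 42 CKO cells, 3 of the 7 genes measured were higher and 1 lower, where 16.4% of genes were higher and 17.4% lower. Gzma had a ratio of 59.1 (43.3 to 81.6) there, with 72.8% of its CKO counts in 1 cell, Gzmb 24.03 (10.503 to 56.2) from 12 WT and 15 CKO counts, and Nkg7 1.55 (1.35 to 1.76). Prf1 was at 1.06 (0.556 to 1.85).

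Of the 35 other pathway genes 28 were measured in the CD8 gate, 3 of them higher and 3 lower, near the gate's background of 11.7% and 12.2%, so the count is no result about the list. Zeb2, a factor of terminal effector cells, was at 5.16 and 18.0 CPM, a ratio of 3.49 (1.63 to 6.81). Rab27a, which docks granules, and Vamp8, a granule fusion protein, had ratios of 1.80 (1.02 to 2.98) and 1.56 (1.2 to 1.99). The cytokine Tnf, with 35 WT counts and 1 CKO count, had a ratio of 0.435 (0.0107 to 2.59). Stx11 and Tnfrsf10b had 22 and 20 WT counts and 0 CKO counts, and a floor of 3 counts leaves their direction undetermined at this depth. Both are nevertheless among the 3 counted as lower, because the calls used 0 counts with 1 CPM added.

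T gate cells with at least 2 UMIs of NK receptor genes numbered 124 in the WT library and 54 in the CKO library. Of the 9 genes measured there 4 were higher and 0 lower, where 10.0% of 6771 genes were higher and 12.3% lower. Gzma stood at 24.3 CPM (15.6 to 36.1) in the WT library and 824 CPM (738 to 917) in the CKO library, a ratio of 33.9 (22.4 to 53.7), with a UMI in 9 and 16 cells. The 3 CKO cells with most Gzma UMIs held 58.6% of its 336 counts, and 1 WT cell held 12 of 24. Gzmm had a ratio of 4.37 (2.95 to 6.57), Prf1 3.60 (2.36 to 5.56) and Gzmb 2.94 (1.37 to 6.45). Nkg7, at 1017 and 1413 CPM, and Ctsw, at 397 and 437 CPM, differed by less than 1.5-fold. The cells were unlike in receptor genes, with a Trdc UMI in 17.7% of WT and 81.5% of CKO cells and a Trac UMI in 85.5% and 38.9%, and the part of this in the ratios was not tested. T gate cells with a Trdc but no Trac UMI and few NK receptor UMIs, 20 WT and 63 CKO cells, held 0 and 2 Gzma counts, although Nkg7 was at 651 and 933 CPM.

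The CD4 gate, with 1191 WT and 283 CKO cells, differed from the CD8 gate in the direction of Fasl and Nkg7. Of the 7 genes measured, 1 was higher and 4 were lower in the CKO library, where 5.09% of 10054 genes were higher and 7.18% lower. The median log2 ratio was −0.60 over the 7 genes and 0.02 over all genes. Gzmb, Gzmk and Gzmm had under 20 counts and were not counted.

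Nkg7 was at 44.6 CPM (40.1 to 49.4) in the WT library and 23.0 CPM (16.4 to 31.3) in the CKO library, a ratio of 0.515 (0.362 to 0.715), from 77 and 7 cells with a UMI. Ctsw was at 33.6 and 21.8 CPM, a ratio of 0.649 (0.449 to 0.913), Fasl at 7.31 and 2.87 CPM, a ratio of 0.393 (0.123 to 0.968), and Serpinb9 at 12.3 and 5.17 CPM, a ratio of 0.420 (0.187 to 0.829). In the CKO CD4 gate Fasl, Ctsw and Nkg7 exceeded the B gate level 22.3 (5.37 to 87.6), 17.5 (11.3 to 26.8) and 8.41 times (5.74 to 12.1). Serpinb9 did so 1.77 times, with an interval of 0.791 to 3.46 that spans 1, so its CKO level is not told apart from the B gate level. The B gate held 12.3% of WT and 9.69% of CKO Serpinb9 UMIs, and whether B cells express it was not tested, so this level is not called background. At equal depth, after thinning to 1000 UMIs, a Nkg7 UMI was found in 30 of 1191 WT cells and 1 of 283 CKO cells, and Fasl in 6 and 0 cells. Ctsw was then found in 3.02% (2.13 to 4.16) of WT and 3.89% (1.96 to 6.85) of CKO cells and Serpinb9 in 1.43% and 1.41%, so the intervals of both overlapped between the libraries. Split by S100a4, a gene of a calcium-binding protein, an alternative added after seeing the data, Nkg7 did not keep its direction. In the 38 WT and 5 CKO cells with at least 2 S100a4 UMIs (3.19% and 1.77% of the gate) Nkg7 was at 361 and 675 CPM, a ratio of 1.87 (1.18 to 2.86), and in the other cells at 29.1 and 8.22 CPM, a ratio of 0.282 (0.152 to 0.483). Those 5 CKO cells held 26 of the gate's 40 Nkg7 counts. Nkg7 moved most with the processing, its ratio being 0.747 with no doublet removal, 0.250 with stricter gates and 0.0463 with gates drawn at equal depth, from 1 CKO count, and 0.345 without the cell with most Nkg7 UMIs in each library, which held 40% of the CKO counts (all with 1 CPM added). Prf1, at 15.8 and 14.4 CPM, gave a ratio of 0.906 (0.566 to 1.40), and Serpinb6b 0.837 (0.485 to 1.37).

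Gzma was the gene counted as higher in the CD4 gate, at 3.17 CPM in the WT library and 9.76 CPM in the CKO library, a ratio of 3.08 (1.57 to 5.90). That is the level found in B gate cells of the same library, 1.07 times (0.665 to 1.65) in the WT library and 1.40 times (0.807 to 2.28) in the CKO library, and is read as background. B cells should lack Gzma, and its level in their gate was 2.97 CPM (2.42 to 3.61) in the WT library and 6.96 CPM (6.22 to 7.76) in the CKO library, 2.34 times (1.87 to 2.96) as high. A Gzma UMI was found in 1.58% of WT and 3.53% of CKO B gate cells. Of the other genes, Prf1 was at 3.93 and 3.29 CPM and Nkg7 at 2.54 and 2.73 CPM in B gate cells, with no such gap, and Gzmk was at 0 of 34313036 UMIs in the WT and 1 of 46536520 UMIs in the CKO B gate. In the NK gate Gzma exceeded the B gate 3664 times in the WT library and 1640 times in the CKO library, while the smallest excess was that of Gzmm in the WT library, 51.3 times (28.1 to 98.2), and of Serpinb6b in the CKO library, 65.5 times (56.6 to 76.04).

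Of the other pathway genes 27 were measured in the CD4 gate, 1 of them higher and 6 lower, beside 5.09% and 7.18% over all genes. Id2, a factor that effector T cells and NK cells share, was at 106 CPM in the WT library and 35.0 CPM in the CKO library, a ratio of 0.330 (0.250 to 0.427). Tbx21, the T-bet factor of T helper 1 and killer cells, had 41 WT and 0 CKO counts, a ratio of at most 0.345 against a floor of 3 counts over the gate. Stx11 had a ratio of 0.242 (0.0283 to 0.933). Cst7 at 0.548, Tnf at 0.624 and Prdm1 at 0.168 had intervals that reached above 1, as did Zeb2, the higher gene, at 2.16 (0.955 to 4.58).

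**Figure D3:**
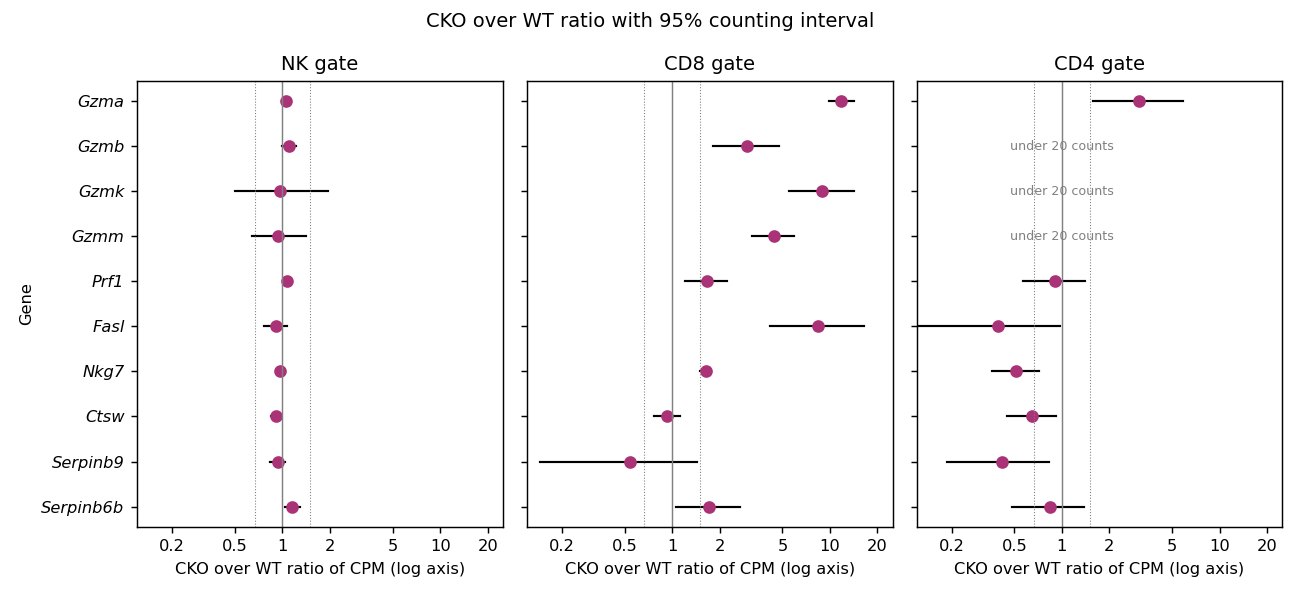
CKO over WT ratio of CPM for each gene in the NK, CD8 and CD4 gates on a log axis, with exact 95% counting intervals, a solid line at 1 and dotted lines at 1.5-fold either way. NK gate points lie within the dotted lines, 8 CD8 gate points lie above them, and 4 CD4 gate points lie below.

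Over all cells of each library, 4 of the 10 genes were higher in the CKO library and 0 lower, where 3.13% of 14899 genes were higher and 3.44% lower. Gzma was at 288 and 774 CPM, a ratio of 2.69 (2.64 to 2.73), Gzmb at 10.9 and 27.3 CPM, a ratio of 2.50 (2.30 to 2.73), Prf1 at 35.0 and 65.7 CPM, a ratio of 1.88 (1.79 to 1.97), and Serpinb6b at 17.9 and 27.7 CPM, a ratio of 1.55 (1.44 to 1.66). The same 4 genes had NK gate ratios between 1.05 and 1.15, and the NK gate held 3.10% of WT and 7.56% of CKO cells. Serpinb9 at 1.40 (1.29 to 1.52) and Fasl at 1.37 (1.21 to 1.56) were also higher in the CKO library, but by less than 1.5-fold. Nkg7 at 1.15 and Ctsw at 0.855 differed less over all cells, and Gzmk at 0.925 (0.681 to 1.25) and Gzmm at 0.981 (0.837 to 1.15) did not differ beyond counting error.

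The gates that held each gene's UMIs differed between the libraries. Gzma came mostly from the NK gate in both, 89.7% of its UMIs in the WT library and 91.5% in the CKO library. Nkg7 came from the CD8 gate (40.6%) and the NK gate (35.6%) in the WT but mostly from the NK gate (77.7%) in the CKO library, where the CD8 gate gave 4.15%. Ctsw moved likewise, from 42.1% in the CD8 and 25.9% in the NK gate to 3.29% and 72.0%. For Prf1 the NK gate gave 57.8% in the WT library and 85.9% in the CKO library, and for Fasl 45.2% and 77.8%. Gzmk and Gzmm were the genes least tied to NK cells, with 14.4% and 11.9% of their WT UMIs and 39.0% and 29.8% of their CKO UMIs in the NK gate, and 54.6% and 57.6% of their WT UMIs in the CD8 gate.

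**Figure D4:**
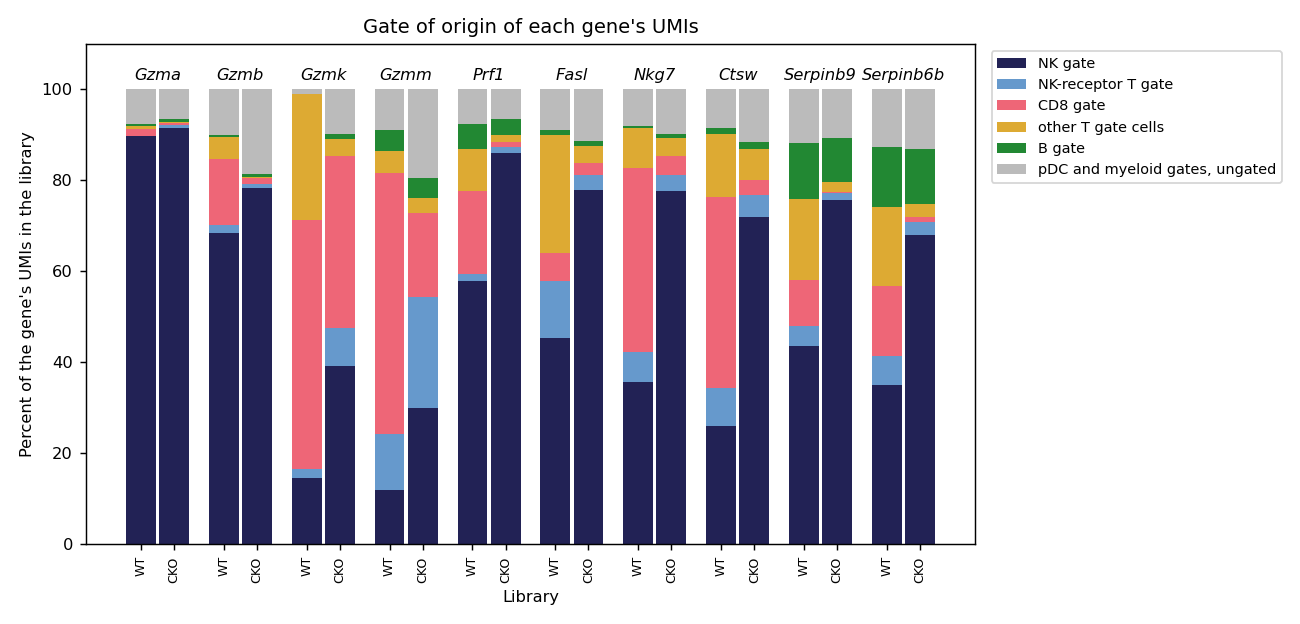
Percent of each gene's UMIs that came from each gate, with 1 bar per gene and library (WT left, CKO right). The NK gate (dark) takes a larger share in the CKO library for all 10 genes, and the CD8 gate (pink) a smaller one.

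Genes whose level ran most like each of the 10 across gates were ranked by Pearson correlation of log2(CPM + 1) over 20 points, 10 gates in 2 libraries, which share libraries and depth, among 8927 genes. Prf1 was most like Eomes, a T-box factor of NK cells (r = 0.941), and Sytl3 (0.938). Nkg7 was most like Tpst2 (0.970), Eomes (0.967) and the chemokine Ccl5 (0.958). Gzma ran with the NK receptor gene Klra4 (0.897), Stk32c (0.895) and Gzmb (0.891), and Gzmb with Klrg1 (0.918), a receptor of mature NK cells. Gzmk and Gzmm were each other's close match (0.850), and Gzmm was most like Ctla2a (0.885), a protease inhibitor gene. Fasl came nearest to Cd200r4 (0.933), Ctsw to Plekha5 (0.954), Serpinb9 to Itga2 (0.915) and Serpinb6b to Ifitm10 (0.937).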

How the data were processed

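Spleen immune cells of 1 WT and 1 RPA1 CKO mouse library (10x Genomics 3′ kit v3.1) were measured. The authors deposited raw UMI counts, a whole number for each feature of each barcode. According to the submitters' processing notes mm10, Cell Ranger 5.0.0 and Seurat 4.0.3 were used, but the headers of both matrices give Cell Ranger 6.0.2. Whether counting used strand is not given in the sources used here. Esm1 overlaps Gzmk on the other strand and had 0 counts in the NK and CD8 gates. Fibp overlaps Ctsw and was at 60.4 and 60.9 CPM in the NK gate and 50.0 and 46.9 CPM in the B gate (WT and CKO), where Ctsw was near background.

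The filter kept cells in which 200 to 6000 genes were detected and mitochondrial UMIs stayed under 10% (12679 WT, 12610 CKO). Scrublet (scanpy 1.11.5) scored doublets, and the highest scores, down to the quantile that an expected 0.8% per 1000 cells gives, removed 1394 WT and 1293 CKO cells. No deposited cell type annotation was used. Gates were drawn on UMI sums. The T gate needed at least 2 UMIs of Cd3d, Cd3e and Cd3g with 1 of Cd3e, the NK gate at least 2 of Ncr1, Klrb1c and Klre1 with no Cd3e, and the B gate at least 4 of a B cell marker list that includes Ms4a1, Cd79a and Cd79b (not all of its genes are reported here), with at most 2 UMIs of the B or myeloid genes in the T and NK gates. The NK gate also allowed at most 1 UMI of the Cd3 genes together and at most 1 of Trac. Within the T gate, cells were assigned in the order NK-receptor T, γδ, Treg, CD8 (at least 2 UMIs of Cd8a and Cd8b1, no Cd4), CD4 and other. CD8 and NK gate cells were also split by a UMI of Il2rb, Trdc, Itgam or Cd27.

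UMIs were summed per gate and library. Levels carry Poisson, shares Clopper-Pearson and ratios exact conditional binomial 95% intervals, and the fold used for calls was 1.5 with 20 summed counts and a pseudocount of 1 CPM. In printed ratios counts of 0 were set to a floor of 3, while the calls used the count of 0 with the pseudocount. Cells were thinned to 1000 UMIs to compare shares. All 10 genes are named, other pathway genes when past 1.5-fold or as examples of their step, and the 3 most similar genes of each were ranked. The members, lists and gates were chosen with earlier results of these data known. Coordinates come from GENCODE M21 (GRCm38), matched by gene ID for all 10, and promoter windows from RefSeq (GRCm38.p6). The calculations were tested on simulated data. Scripts ran in Python 3.11.15 with scipy 1.17.1, numpy 2.4.6, matplotlib 3.10.9 and pandas 2.3.3. Alternatives covered the barcode filter, doublets, stricter gates, gates after thinning to 2000 UMIs, a pseudocount of 5 CPM, 50 summed counts, shared barcodes and the makeup of the gates. Leaving out the cell with most UMIs of each gene, and splitting the CD4 gate ratios by S100a4, were added after seeing the data.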

Additional observations from a re-analysis of the deposited data

Results flagged for a closer look

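Fasl and Nkg7 lay on opposite sides of 1 in 2 T cell gates, with intervals that did not reach 1. The CKO over WT ratio of Fasl was 8.46 (4.18 to 16.5) in the CD8 gate and 0.393 (0.123 to 0.968) in the CD4 gate. That of Nkg7 was 1.64 (1.51 to 1.77) in the CD8 gate and 0.515 (0.362 to 0.715) in the CD4 gate, and it was 0.961 (0.931 to 0.992) in the NK gate. Fasl had only 15 CKO counts in the CD8 gate and 5 in the CD4 gate. A Trdc UMI was also found in 7 of the 11 CKO CD8 gate cells with Fasl. Within CD4 gate cells with at least 2 S100a4 UMIs the Nkg7 ratio was 1.87. With 1 library per genotype the difference between the gates was not tested.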

How the results depend on the processing

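The NK and T gate counts kept to within 1.5 times under every alternative for which counts were scored. Splits of a gate into subsets were not scored this way. Among Cd27-only NK gate cells Gzmm was counted as lower, with a CKO over WT ratio of 0.630 (0.325 to 1.24). In the CD8 gate, the 1 gene counted as lower became 0 with gates drawn after thinning to 2000 UMIs and with a pseudocount of 5 CPM. In the CD4 gate, the 1 gene counted as higher became 0 with gates after thinning and with 50 summed counts. Both rest on few counts. The CD8 ratio of Gzmb turned to 0.840 within cells holding an Il2rb UMI, and that of Serpinb6b to 0.967 within cells without a Trdc UMI (both with 1 CPM added). The CD4 ratios of Nkg7 and Ctsw turned to 1.87 and 1.35 within the 5 CKO and 38 WT cells with at least 2 S100a4 UMIs. Single ratios moved beyond their counting interval in 11 of 107 alternatives in the NK gate, 11 of 90 in the T, 21 of 116 in the CD8 and 6 of 71 in the CD4 gate. The Gzma ratio in the CD8 gate ran from 2.58 within cells with Il2rb to 53.9 within cells without it, and was 25.6 with stricter gates and 17.8 with gates after thinning. The cause was not tested. No paired analysis was possible because each genotype has 1 library. Depth limits the CKO CD8 gate, with 80 cells, and the smaller T gates most.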

Other observations

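Cells outside every gate held 10.1% of the WT and 18.5% of the CKO Gzmb UMIs. In the CKO library 1 such cell, looked at after its value was seen, held 105 Gzmb UMIs of 8683 UMIs in all, with 103 UMIs of Cpa3 and 14 of Mcpt8, protease genes of mast cells and basophils, and 0 UMIs of Gzma, Prf1 and Ncr1. Cells outside the gates with at least 2 Mcpt8 UMIs were found as 2 WT and 3 CKO cells, which held 1 and 150 Gzmb UMIs. The 3 CKO cells carried 8.56% of that library's Gzmb UMIs. Of the Gzma UMIs outside the gates, 97.9% (WT) and 98.3% (CKO) lay in cells with a UMI of Ncr1, Klrb1c or Klre1.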
